A study of Mus musculus with 18 samples.

Results

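Germ layer differentiation markers are genes that are switched on as embryonic cells form the primitive streak and mesoderm, the blood and vessels, the ectoderm with the nervous system, or the endoderm. Mouse embryonic stem (ES) cells are held before these choices by leukemia inhibitory factor (LIF), which acts through the transcription factor STAT3, and most of the genes that define a germ layer are known to be silent or weakly transcribed in them. A culture that is losing the undifferentiated state is commonly recognized by a rise of such markers, for which reason they are measured in newly established ES cell lines.

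The markers described were 33 genes chosen by name, and all probe sets of the arrays that the chip annotation pairs with one of them alone were taken. Each probe set consists of several short oligonucleotides designed against the same transcript. The annotation gave probe sets to 30 of the 33 genes, out of 15964 genes with a probe set of their own, and the 30 genes had 49 of the 36701 probe sets that are not controls. T, Mixl1 and Otx2 were not paired alone with any probe set in the annotation used and were not analysed here. Of the 49 probe sets, 38 were on the U74Av2 chip, 7 on U74Bv2 and 4 on U74Cv2. The number of genes with a single probe set was 16, and 14 genes had more. The names of 7 of the 49 probe sets carry a suffix (_f, _i, _r or _s) that marks a probe set of less strict design. With _f and _s it marks possible hybridization with other transcripts. Grouped by the layer they mark, 10 measured genes belong to the primitive streak and mesoderm, 3 to blood and endothelium, 12 to ectoderm and neural tissue, and 5 to endoderm.

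The study compared ES cells of the mouse strain FVB/N in 2 groups of 3 dishes. The cells of the STAT3-MER OHT group carried a transgene that joins mouse STAT3 to the modified ligand-binding domain of the estrogen receptor under the chicken β-actin promoter, and they were kept in 4-hydroxytamoxifen (OHT), which activates the fusion protein, without LIF. The cells of the WT LIF group carried no transgene and were kept in LIF without OHT. The ES lines of both groups were derived on growth-arrested mouse fibroblasts (feeder cells), whose RNA may be present in a dish. The STAT3-MER OHT dishes came from one transgenic line and the WT dishes from wild type FVB/N cells, cultivated independently, so that the p-values measure the spread between dishes and the difference between the groups holds the line, the transgene, OHT and LIF together. RNA of every dish was amplified in 2 rounds and hybridized to the 3 chips, which gave 18 arrays.

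The labels of the U74Av2 arrays were checked with the transgene, whose receptor part set the groups apart on that chip. The labels of the U74Bv2 and U74Cv2 arrays were not checked in this way. The probe set of Esr1, the estrogen receptor gene whose domain the fusion contains, read 25568 to 31548 in the STAT3-MER OHT dishes, against 9.25 to 40.3 in the WT LIF dishes, on U74Av2. The 4 probe sets of Stat3, the other part of the fusion, gave mean signals in STAT3-MER OHT of 0.964 to 1.66 times those in WT LIF and did not pass the threshold (adjusted p = 0.9996, limma). The list of 12 markers of undifferentiated ES cells was chosen with earlier results of these data known. All 12 genes had a probe set above the median signal of its chip in all 6 dishes. This held for 14 of their 21 probe sets. Of the 24 probe sets for 15 feeder fibroblast genes, 15 (62.5%) were above the median in all 6 dishes. The summed signal of the 19 feeder probe sets on U74Av2 was 12393, 56708 and 39410 in STAT3-MER OHT dishes 1, 2 and 3, against 49310, 21312 and 48580 in WT LIF dishes 1, 2 and 3. STAT3-MER OHT dish 1 and WT LIF dish 2 thus stood apart by a low fibroblast signal on U74Av2, one in each group. The 19 probe sets of a primitive endoderm list on U74Av2 were lowest in the same dishes. They summed to 5810, 13306 and 9772 in STAT3-MER OHT, against 14820, 6260 and 10026 in WT LIF. The 11 probe sets of a trophectoderm list were instead lowest in dish 3 of each group (3761 and 3374). The part of feeder and of differentiated cells in these sums was not tested. It is uncertain in both groups that a number stands for a single dish across the 3 chips. STAT3-MER OHT dish 1 deviated from its group with WT LIF dish 2 on U74Av2 (r = 0.41 across probe sets). On U74Bv2 it did so with WT LIF dish 1 (r = 0.18). The correlations do not tell in which group the numbers differ, and the STAT3-MER OHT array taken as number 2 on U74Av2 carried no number. Values are therefore compared between dishes within a chip.

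The question asked of the markers was which of them lay above the median of the chip in ES cell dishes. The deposited values are signal intensities on a linear scale with no detection call, and the median over the probe sets of an array was between 132 and 269. A probe set above this median lies in the upper part of its chip, which depends on its oligonucleotides as well as on the amount of RNA, so that its position does not rank one gene against another. In bulk RNA of a dish, fewer cells of a type and less RNA per cell cannot be told apart.

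Most germ layer markers lay in the lower part of the chips. Only Nes and Foxf1 had a probe set above the median in all 6 dishes. These were 2 of the 49 member probe sets (4.08%), beside 36.1% of all probe sets. At or below the median in all 6 dishes were 33 of the 49 (67.3%), beside 34.7% of all probe sets, and the other 14 were above it in 1 to 5 dishes. These shares differ by chip. On U74Av2, which holds 38 of the 49, 73.7% of the members were above the median in no dish, beside 42.0% of all probe sets of that chip. For 15 of the 30 genes no probe set was above the median in any dish. The mean percentile of a member probe set on its chip over the 6 dishes had a median of 30.7, beside 48.3 for all probe sets. None of the 49 was above the upper quartile of its chip in all 6 dishes, beside 17.4% of all probe sets.

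**Figure D1:**
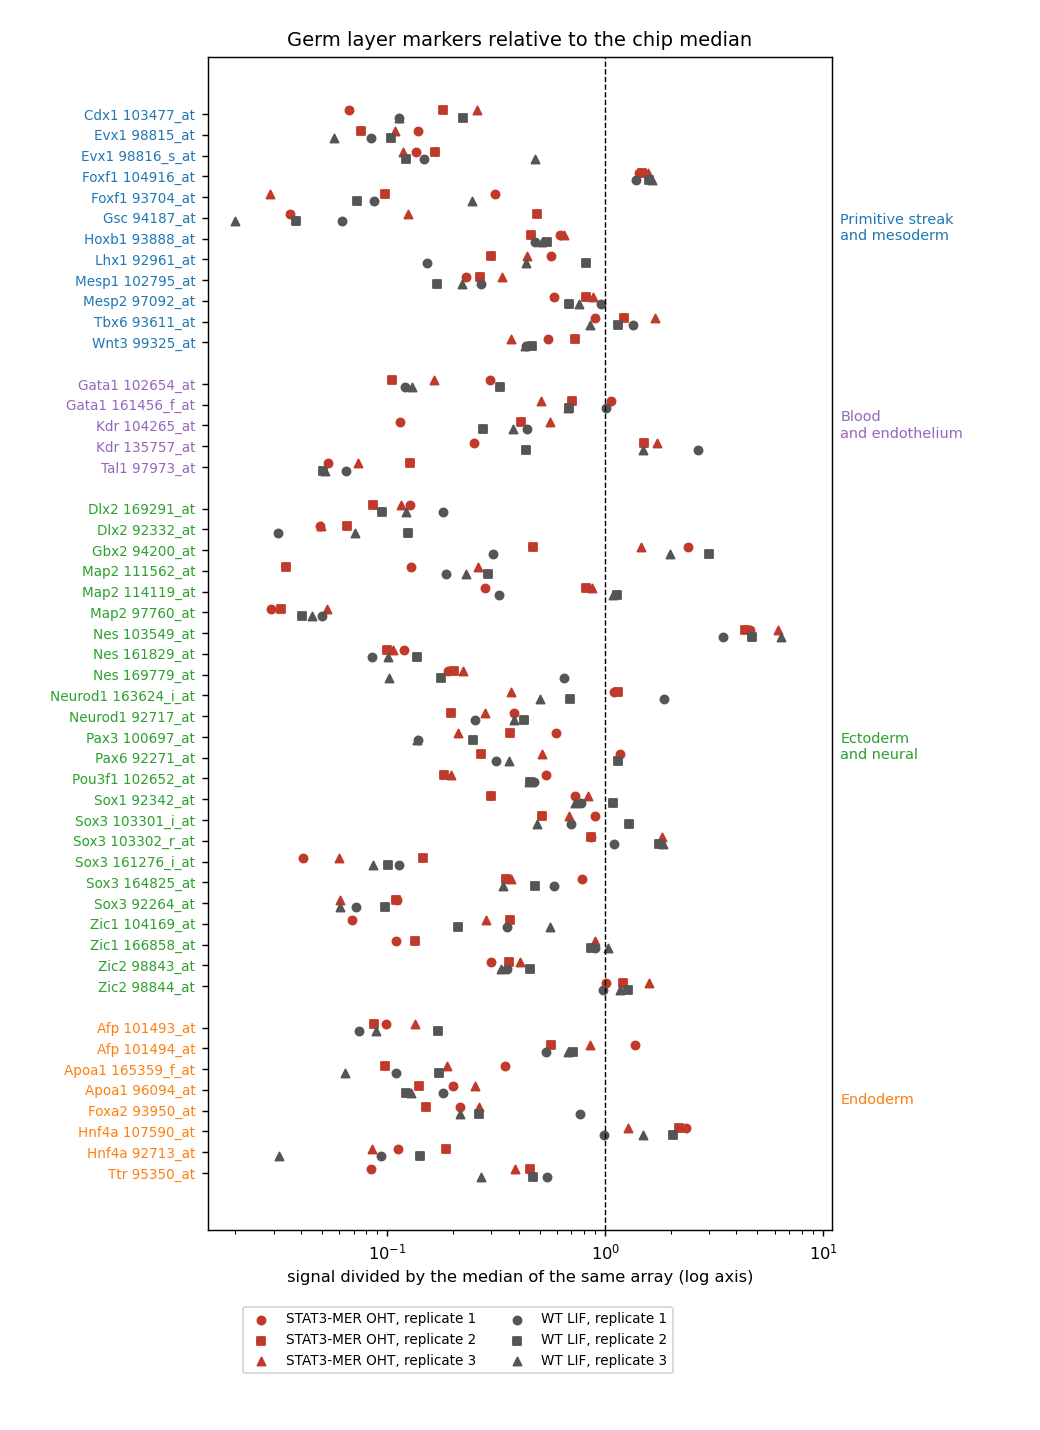
Signal of each of the 49 member probe sets divided by the median of the same array (log axis) in the 3 STAT3-MER OHT dishes (red) and the 3 WT LIF dishes (grey), with the symbol giving the replicate number and the dashed line the chip median. Nes 103549_at and Foxf1 104916_at lie to the right of the line in all 6 dishes, and 33 probe sets lie to its left in all 6.

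By class, few probe sets lay above the median in every dish. Above the median in all 6 dishes were 1 of 12 probe sets of primitive streak and mesoderm, 0 of 5 of blood and endothelium, 1 of 24 of ectoderm and neural tissue, and 0 of 8 of endoderm. Above it in no dish were 10, 3, 14 and 6 of these probe sets in the same order of classes. The median percentiles of the classes were 30.1, 31.0, 31.7 and 24.0. Differences between classes of 5 to 24 probe sets were not tested. A second list of 65 other germ layer genes, among them signals such as Fgf8 and liver genes such as Alb, was measured through 99 probe sets of 57 genes. Of these, 18 (18.2%) were above the median in all 6 dishes and 60 (60.6%) in none. The 18 belong to 14 genes. Those of streak and mesoderm are Nodal, Lefty1, Fgf8, Gata2 and Pecam1. Those of ectoderm and neural tissue are Tubb3, Hes5, Sox11, Ncam1, En2 and Sox2, and those of endoderm are Apoe, Foxa3 and Gata4. Sox2 is in the list of undifferentiated ES cell markers too, and Gata4 in the primitive endoderm list too. The highest Apoe probe set lay at the 98.6th percentile of its chip on average, and that of Tubb3 at the 97.9th. The Tubb3 and Foxa3 probe sets among the 18 carry the suffix _f.

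**Figure D2:**
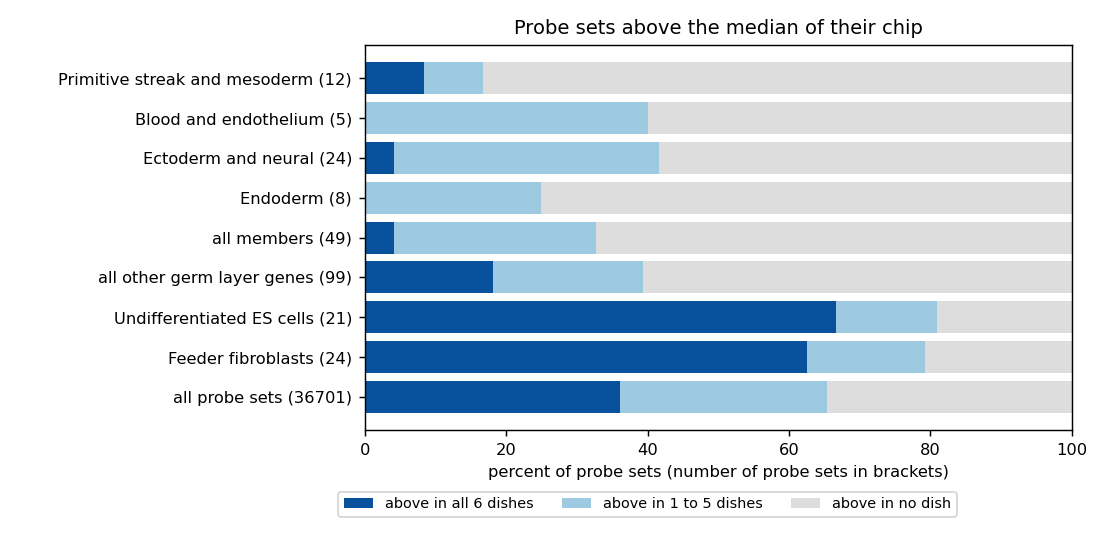
Percent of probe sets above the median of their chip in all 6 dishes (dark blue), in 1 to 5 dishes (light blue) or in no dish (grey), for the 4 classes of members, all 49 members, the other germ layer genes, the marker lists of undifferentiated ES cells and feeder fibroblasts, and all 36701 probe sets, with the number of probe sets in brackets. The dark share is 4.08% for the members, 66.7% for the ES cell markers and 36.1% for all probe sets.

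The CpG-rich promoters of many developmental regulators are known to be bound by Polycomb proteins in ES cells, while CpG-poor promoters are more often those of proteins made by a differentiated tissue. RefSeq promoter windows of GRCm38.p6, which run from 250 bases before to 50 bases after a start site, matched 25 of the 33 genes (23 of the 30 measured) with 33 windows. A window was called CpG-rich where the dinucleotide CG occurred at 0.6 or more of the number that its C and G content gives and at least 50% of its bases were G or C. This held for 18 of the 33 member windows (54.5%), beside 33.5% of 32851 windows of all genes. By class, 4 of 9 windows of primitive streak and mesoderm genes, 3 of 4 of blood and endothelium, 9 of 13 of ectoderm and neural genes and 2 of 7 of endoderm genes were CpG-rich. The letters TATAAA on either strand were in 5 member windows (15.2%), beside 13.6% of all windows. The windows of Nes and Gbx2 are shown as CpG-rich examples of neural genes, and those of Afp and Apoa1 as CpG-poor ones of endoderm genes, each 5′ to 3′ on the strand of the gene, with every CG in capitals. The Nes window is chr3:87970843-87971142 on the plus strand, the Gbx2 window chr1:89931127-89931426 on the minus strand, the Afp window chr5:90490464-90490763 on the plus strand and the Apoa1 window chr9:46228380-46228679 on the plus strand.
Nes: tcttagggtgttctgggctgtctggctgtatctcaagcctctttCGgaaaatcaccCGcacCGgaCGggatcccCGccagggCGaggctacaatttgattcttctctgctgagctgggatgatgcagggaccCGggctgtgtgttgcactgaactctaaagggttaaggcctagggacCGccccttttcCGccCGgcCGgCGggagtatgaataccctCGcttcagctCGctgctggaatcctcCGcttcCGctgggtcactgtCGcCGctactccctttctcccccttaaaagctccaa
Gbx2: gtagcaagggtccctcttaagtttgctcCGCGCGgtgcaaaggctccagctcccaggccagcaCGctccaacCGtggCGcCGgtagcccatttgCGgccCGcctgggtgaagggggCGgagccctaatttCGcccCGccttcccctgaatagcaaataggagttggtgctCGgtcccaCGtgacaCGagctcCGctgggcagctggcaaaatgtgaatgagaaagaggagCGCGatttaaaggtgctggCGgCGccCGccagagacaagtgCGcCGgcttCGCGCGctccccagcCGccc
Afp: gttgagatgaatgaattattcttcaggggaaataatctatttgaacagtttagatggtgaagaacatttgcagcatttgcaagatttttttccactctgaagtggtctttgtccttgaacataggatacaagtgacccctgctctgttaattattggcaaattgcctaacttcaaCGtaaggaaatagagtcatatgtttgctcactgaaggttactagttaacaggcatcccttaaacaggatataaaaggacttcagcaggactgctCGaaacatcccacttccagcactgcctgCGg
Apoa1: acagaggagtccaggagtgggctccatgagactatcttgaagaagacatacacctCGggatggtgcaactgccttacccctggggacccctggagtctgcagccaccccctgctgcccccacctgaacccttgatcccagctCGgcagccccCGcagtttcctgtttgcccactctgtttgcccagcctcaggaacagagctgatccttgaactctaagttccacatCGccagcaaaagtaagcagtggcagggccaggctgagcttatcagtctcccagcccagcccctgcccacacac
The Nes window holds 18 CG and the Gbx2 window 27, against 3 in Afp and 4 in Apoa1. Among these 4 windows, TATAAA occurs in that of Afp alone. Across all genes, probe sets of genes with a CpG-rich window were above the chip median in all 6 dishes more often (46.9% of 15483) than those of genes with another window (26.3% of 7765). Of the 22 probe sets for the 14 members with a CpG-rich window, 1 (4.55%) was above the median in all 6 dishes and 14 (63.6%) in none. Of the 14 probe sets for the 9 members with another window, 0 were above it in all 6 and 10 (71.4%) in none. The members with a window thus lay low on the chips with both kinds of promoter. Measured members without a window are not in these counts. They are Foxf1, Zic2 and Sox3, which had a probe set above the median in 6, 5 and 4 dishes, and Cdx1, Pax3, Pou3f1 and Ttr.

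**Figure D3:**
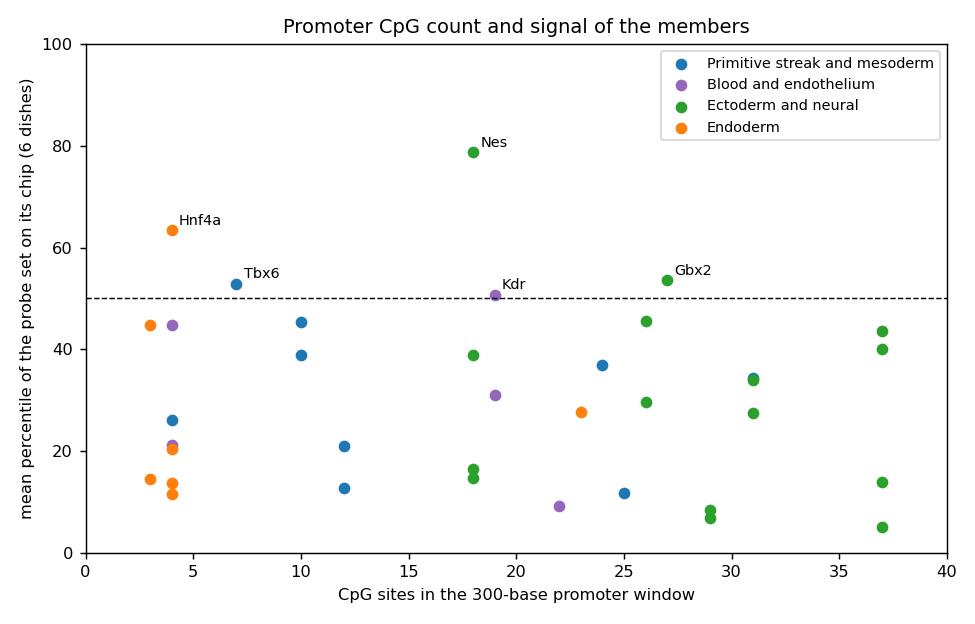
Mean percentile of each member probe set on its chip over the 6 dishes against the number of CpG sites in the 300-base promoter window of its gene (the window with most CpG where a gene has several), coloured by class, for the 23 measured genes with a window. A probe set of Nes (18 CpG) and of Hnf4a (4 CpG) lies above the 50th percentile, as does one each of Tbx6, Kdr and Gbx2. The other probe sets of Nes, Hnf4a and Kdr lie below it.

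Of the genes of the primitive streak and mesoderm, Foxf1 was above the chip median in all dishes. Foxf1, a forkhead factor of the lateral and splanchnic mesoderm, read 357, 374 and 397 with probe set 104916_at on U74Bv2 in the STAT3-MER OHT dishes, against 363, 428 and 404 in the WT LIF dishes. This is 1.39 to 1.64 times the median of the same array. The groups overlapped, with means of 376 ± 20.0 in STAT3-MER OHT and 399 ± 32.9 in WT LIF (SD, n = 3 each) and a log2 fold change of -0.076 (SE 0.29, adjusted p = 0.9996, limma). The second probe set of Foxf1, 93704_at on U74Av2, read 4.28 to 41.4 and was below the median in every dish, so that the 2 probe sets of the gene disagree. Foxf1 is also known from mesenchymal fibroblasts. Foxf1 104916_at varied by 1.2-fold over the 6 dishes, while the 3 feeder probe sets on that chip summed to 249 to 2188 in STAT3-MER OHT and 511 to 1656 in WT LIF, and their part in the Foxf1 signal was not tested.

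Tbx6, a T-box factor of the paraxial mesoderm, was the one other gene of this class with a dish above the median, and it was singled out after its values were seen. It read 119, 192 and 253 in the STAT3-MER OHT dishes, against 209.6, 167 and 119 in the WT LIF dishes. It was above the median in 4 of 6 dishes, 2 in each group, and its dishes lay between 0.855 and 1.7 times the median. The remaining genes of the class were below the median in every dish. Mesp2, a bHLH factor that segments the mesoderm, came closest with 0.581 to 0.957 times the median. Its relative Mesp1, one of the first factors of cardiac mesoderm, lay at 0.169 to 0.337 times the median. Wnt3, the ligand that is needed to form the streak, reached at most 0.724 times the median. Lhx1, a LIM homeobox factor of the node, reached 0.817 and Hoxb1, a homeobox factor of the streak and hindbrain, 0.646 times the median. Cdx1, which patterns the posterior axis, reached at most 0.257 times the median.

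Gsc and Evx1 had the smallest p-values of the class. Gsc, a homeobox gene of the organizer, read 4.73, 76.9 and 18.5 in the STAT3-MER OHT dishes, against 9.74, 5.55 and 2.77 in the WT LIF dishes. Dishes 2 and 3 of STAT3-MER OHT were above all WT LIF dishes and dish 1 was not, and all 6 signals were at most 0.489 times the median. The log2 fold change, on the scale of log2(signal + 32) which understates the change of dim probe sets, was 0.63 (SE 0.36, unadjusted p = 0.114, adjusted p = 0.9996, limma). It was 0.18 without STAT3-MER OHT dish 2 and 0.97 without STAT3-MER OHT dish 1. Evx1, a homeobox gene of the posterior streak, read 17.9, 26.0 and 17.6 with 98816_s_at in the STAT3-MER OHT dishes, against 23.1, 17.8 and 66.4 in the WT LIF dishes. One WT LIF dish stood above the others, and the log2 fold change of -0.30 (SE 0.27, adjusted p = 0.9996, limma) rested on that dish, being -0.00070 without WT LIF dish 3. The second Evx1 probe set read 7.91 to 18.2.

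Among the markers of blood and endothelium, Kdr, the receptor for vascular endothelial growth factor on endothelial progenitors, was above the median in some dishes with 1 of its 2 probe sets. With 135757_at on U74Cv2, Kdr read 57.5, 322 and 374 in the STAT3-MER OHT dishes, against 584, 94.3 and 285 in the WT LIF dishes. It was above the median in 2 dishes of each group and far below it in STAT3-MER OHT dish 1 and WT LIF dish 2. The range over the dishes was 10.2-fold and the log2 fold change -0.31 (SE 0.74, adjusted p = 0.9996, limma), whose sign turned without STAT3-MER OHT dish 1 (0.38) and without WT LIF dish 1 (0.23). The other probe set, 104265_at on U74Av2, read 15.0, 64.5 and 82.8 in STAT3-MER OHT, against 68.5, 40.0 and 52.7 in WT LIF, and was below the median in every dish. Within U74Av2, this probe set was lowest in STAT3-MER OHT dish 1 and WT LIF dish 2. These arrays had the least feeder and primitive endoderm signal on that chip, and the part of either cell type in these values was not tested. On U74Cv2 itself the feeder list has 2 probe sets, which summed to 498, 149 and 330.0 in STAT3-MER OHT and 565, 280.0 and 230.4 in WT LIF.

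Tal1, the bHLH factor that starts blood formation, read 7.07, 20.0 and 10.9 in the STAT3-MER OHT dishes, against 10.1, 7.34 and 7.20 in the WT LIF dishes. All of these are at most 0.127 times the median, and the groups overlapped (log2 fold change 0.14, SE 0.15, adjusted p = 0.9996, limma, and 0.026 without STAT3-MER OHT dish 2). Gata1, the zinc finger factor of red cells, was above the median only in dish 1 of each group with 161456_f_at, at 0.507 to 1.07 times the median over the 6 dishes. The suffix of this probe set marks possible hybridization with related transcripts, and the Gata1 probe set without a suffix read 16.6 to 47.8, below the median in every dish.

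Among ectoderm and neural genes, Nes was above the chip median in all dishes. Nes encodes nestin, the intermediate filament protein of neural progenitors, which is also known from other dividing progenitor cells. With 103549_at on U74Av2 it read 609, 694 and 928 in the STAT3-MER OHT dishes, against 546, 685 and 894 in the WT LIF dishes. These signals are 3.48 to 6.42 times the median of the array, at the 78.7th percentile of the chip on average. The groups overlapped almost fully, with means of 744 ± 165 in STAT3-MER OHT and 708 ± 175 in WT LIF (SD, n = 3 each) and a log2 fold change of 0.073 (SE 0.25, adjusted p = 0.9996, limma), whose sign changed without STAT3-MER OHT dish 3 and without WT LIF dish 1 (-0.092 in both). The other probe sets of Nes read 13.3 to 20.0 on U74Av2 and 19.3 to 141 on U74Cv2, below the median in every dish. The gene, whose CpG-rich promoter is printed above, thus lies high or low on the chip depending on the probe set.

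Gbx2, Zic2 and Sox3 were above the median in 4 or 5 dishes and were described after their values were seen. Gbx2, a homeobox gene of the anterior hindbrain that is also known as a target of LIF and STAT3 in mouse ES cells, read 317, 73.0 and 217 in the STAT3-MER OHT dishes, against 48.0, 435 and 275 in the WT LIF dishes. It was above the median in 2 dishes of each group and ranged 9.05-fold over the dishes, with means of 202 ± 123 in STAT3-MER OHT and 253 ± 194 in WT LIF (SD, n = 3 each). The highest dishes were STAT3-MER OHT 1 and WT LIF 2, those with the least feeder and primitive endoderm signal on the same chip, U74Av2. Zic2, a zinc finger factor of the dorsal neural tube that is also known from the epiblast, read 133, 189 and 236 with 98844_at in STAT3-MER OHT, against 154, 185 and 163 in WT LIF. Only WT LIF dish 1 was below the median, at 0.981 times it, and the second Zic2 probe set read 39.3 to 65.6 and was always below. Sox3, a SoxB1 factor of neural progenitors, had 5 probe sets. The one above the median in most dishes, 103302_r_at, read 113, 135 and 272 in STAT3-MER OHT, against 173, 257 and 257 in WT LIF, and was above the median in 1 dish of STAT3-MER OHT and all 3 of WT LIF. Its suffix marks a less strict design. Sox3 103301_i_at, which carries a suffix too, was above the median in 1 dish, and the other 3 Sox3 probe sets in none.

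Pax6, which specifies the eye and forebrain, followed the dishes like Gbx2. It read 154, 42.5 and 76.2 in STAT3-MER OHT, against 49.6, 167 and 50.4 in WT LIF, above the median in STAT3-MER OHT dish 1 and WT LIF dish 2. On U74Av2, 10 of the 38 member probe sets (26.3%) were highest in STAT3-MER OHT dish 1 within that group and in WT LIF dish 2 within the other, beside 12.5% of all probe sets of the chip, and 5 (13.2%) were lowest in both, beside 15.3%. These counts were made after the values were seen, and the part of the feeder cells in them was not tested. Among the 10, Evx1 98815_at, Lhx1, Gata1 102654_at, Nes 161829_at, Neurod1 92717_at and Pax3 were below the median in every dish. Some were highest by very little, as Nes 161829_at, which read 15.78, 15.64 and 15.76 in STAT3-MER OHT. On U74Av2, 6, 3 and 5 of 38 member probe sets were above the median in the STAT3-MER OHT dishes, against 4, 8 and 4 in the WT LIF dishes. The dish with most of them was the one with the least feeder signal in each group. It was not the dish with the highest ES cell marker signal. The 16 ES cell marker probe sets on U74Av2 summed to 70749, 68584 and 77447 in the STAT3-MER OHT dishes, against 90736, 74251 and 60723 in the WT LIF dishes.

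**Figure D4:**
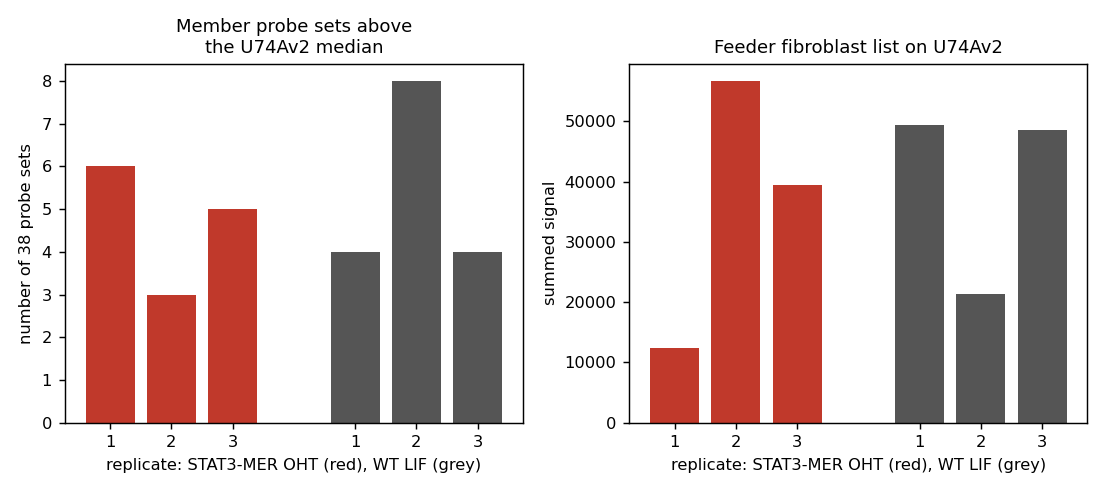
Number of the 38 member probe sets on U74Av2 above the chip median (left) and summed signal of the 19 feeder fibroblast probe sets on the same chip (right), by dish, STAT3-MER OHT in red and WT LIF in grey. STAT3-MER OHT dish 1 and WT LIF dish 2 have the lowest feeder sums (12393 and 21312) and the most member probe sets above the median of their groups (6 and 8).

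Zic1 and Pax3 had the smallest p-values of the ectoderm class. Zic1, a zinc finger factor of the dorsal neural tube, read 25.3, 28.5 and 195 with 166858_at on U74Cv2 in the STAT3-MER OHT dishes, against 197, 188 and 196 in the WT LIF dishes. The WT LIF dishes were close together (194 ± 5.09, SD, n = 3), and STAT3-MER OHT dish 3 lay among them while dishes 1 and 2 lay far below. The log2 fold change was -1.29 (SE 0.60, unadjusted p = 0.0589, adjusted p = 0.9996, limma), and without STAT3-MER OHT dish 3 it was -1.94, which did not pass the threshold either. The second Zic1 probe set, 104169_at on U74Av2, did not follow this pattern and read 9.12, 57.7 and 42.3 in STAT3-MER OHT, against 55.5, 30.8 and 77.2 in WT LIF. Pax3, a paired box factor of the dorsal neural tube and neural crest, read 78.4, 57.3 and 31.3 in the STAT3-MER OHT dishes, against 21.8, 35.8 and 19.1 in the WT LIF dishes. Dishes 1 and 2 of STAT3-MER OHT were above all WT LIF dishes and dish 3 lay among them, and every signal was at most 0.593 times the median. The log2 fold change of Pax3 was 0.58 (SE 0.27, unadjusted p = 0.0604, adjusted p = 0.9996, limma).

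The other neural genes were below the median in most dishes. Sox1, the earliest SoxB1 marker of committed neural cells, read 47.1 to 124 in STAT3-MER OHT and 101 to 158 in WT LIF and was above the median in WT LIF dish 2 alone. Pou3f1, a POU factor of the epiblast and of myelinating cells, reached at most 0.534 times the median. Dlx2, a homeobox factor of forebrain interneurons, reached 0.180 times the median at most with its 2 probe sets. Neurod1, a bHLH factor of differentiating neurons, was above the median in 3 dishes with 163624_i_at, which carries a suffix (275, 289.8 and 92.9 in STAT3-MER OHT, against 487, 186 and 123 in WT LIF), and in none with its other probe set. Map2, the microtubule-associated protein of neurons, had 3 probe sets, and one of them was above the median in WT LIF dishes 2 and 3.

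Among endoderm genes, Hnf4a came nearest to the genes above the median in all dishes. Hnf4a, a nuclear receptor of visceral endoderm and liver, read 589.7, 553 and 322 with 107590_at on U74Bv2 in the STAT3-MER OHT dishes, against 258, 551 and 365 in the WT LIF dishes, and was described after its values were seen. WT LIF dish 1 was at 0.985 times the median, and the other 5 dishes were above it, up to 2.35 times. Its means of 488 ± 145 in STAT3-MER OHT and 391 ± 148 in WT LIF (SD, n = 3 each) lay within the spread between dishes. The second Hnf4a probe set, on U74Av2, read 4.43 to 29.2 and was below the median in every dish. Afp, the fetal serum protein of yolk sac and liver, was above the median in STAT3-MER OHT dish 1 alone with 101494_at, at 182, 88.9 and 126 in STAT3-MER OHT, against 83.6, 104 and 94.0 in WT LIF. Its other probe set read 11.7 to 24.8. Ttr, the carrier of thyroxine made by visceral endoderm and liver, read 11.1 to 70.8 in STAT3-MER OHT and 37.3 to 85.1 in WT LIF and was always below the median.

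Foxa2 and Apoa1 had the smallest p-values of the endoderm class. Foxa2, a forkhead factor of definitive endoderm and the node, read 28.6, 23.7 and 38.9 in the STAT3-MER OHT dishes, against 120.3, 38.2 and 30.1 in the WT LIF dishes. WT LIF dish 1 stood above the other dishes, which overlapped, and all were at most 0.767 times the median. The log2 fold change was -0.49 (SE 0.35, adjusted p = 0.9996, limma) and -0.089 without WT LIF dish 1. Apoa1, the main protein of high-density lipoprotein, read 87.0, 24.8 and 47.5 with 165359_f_at on U74Bv2 in STAT3-MER OHT, against 28.8, 46.5 and 15.7 in WT LIF. The groups overlapped (log2 fold change 0.41, SE 0.36, adjusted p = 0.9996, limma; 0.14 without STAT3-MER OHT dish 1 and 0.67 without STAT3-MER OHT dish 2), and all dishes were at most 0.346 times the median. The second Apoa1 probe set read 17.8 to 37.6, so that both probe sets of the gene lay low on their chips.

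Probe sets of one gene often disagreed. Of the 14 members with more than 1 probe set, 6 had one that was above the median in at least 4 dishes (Nes, Foxf1, Hnf4a, Zic2, Kdr and Sox3), and all 6 also had one that was above it in no dish. Over all genes with more than 1 probe set, this held for 52.4% of the 6018 genes that had a probe set above the median in at least 4 dishes. The gap between the highest and the lowest mean percentile was 64.1 points for Nes, 49.6 for Hnf4a and 45.4 for Foxf1, and had a median of 22.3 points over the 14 members, beside 35.0 over all such genes. Gbx2 and Tbx6 have a single probe set each, so that their levels could not be compared in this way.

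Between STAT3-MER OHT and WT LIF, 0 of the 49 member probe sets passed the threshold (limma, adjusted p under 0.05 over all 36701 probe sets), beside 0.00272% of all probe sets. At an unadjusted p under 0.05 the count of members was also 0, beside 1.88% of all probe sets higher and 1.57% lower. The methods' t-test at p under 0.1, run on the deposited signals and not on dChip values, called 0 members as well, beside 5.47% of all probe sets. The dishes of the groups did not separate on any member, while all dishes of one group lay above all of the other on 8.13% of all probe sets (4.5% higher and 3.63% lower in STAT3-MER OHT). An exact permutation test of 3 dishes against 3 cannot give a p below 0.1 for a single probe set. The log2 fold changes, STAT3-MER OHT over WT LIF, were positive for 21 and negative for 28 member probe sets, with a median of -0.041 beside 0.0094 over all probe sets, and ranged from -1.29 (Zic1 166858_at) to 0.63 (Gsc). By class the median was 0.080 for primitive streak and mesoderm, -0.078 for blood and endothelium, -0.10 for ectoderm and neural tissue and 0.18 for endoderm. The class medians were not tested. The standard errors of the single probe sets given with a fold change were 0.15 to 0.74, and a p that misses the threshold with 3 dishes per group does not show the groups to be equal.

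**Figure D5:**
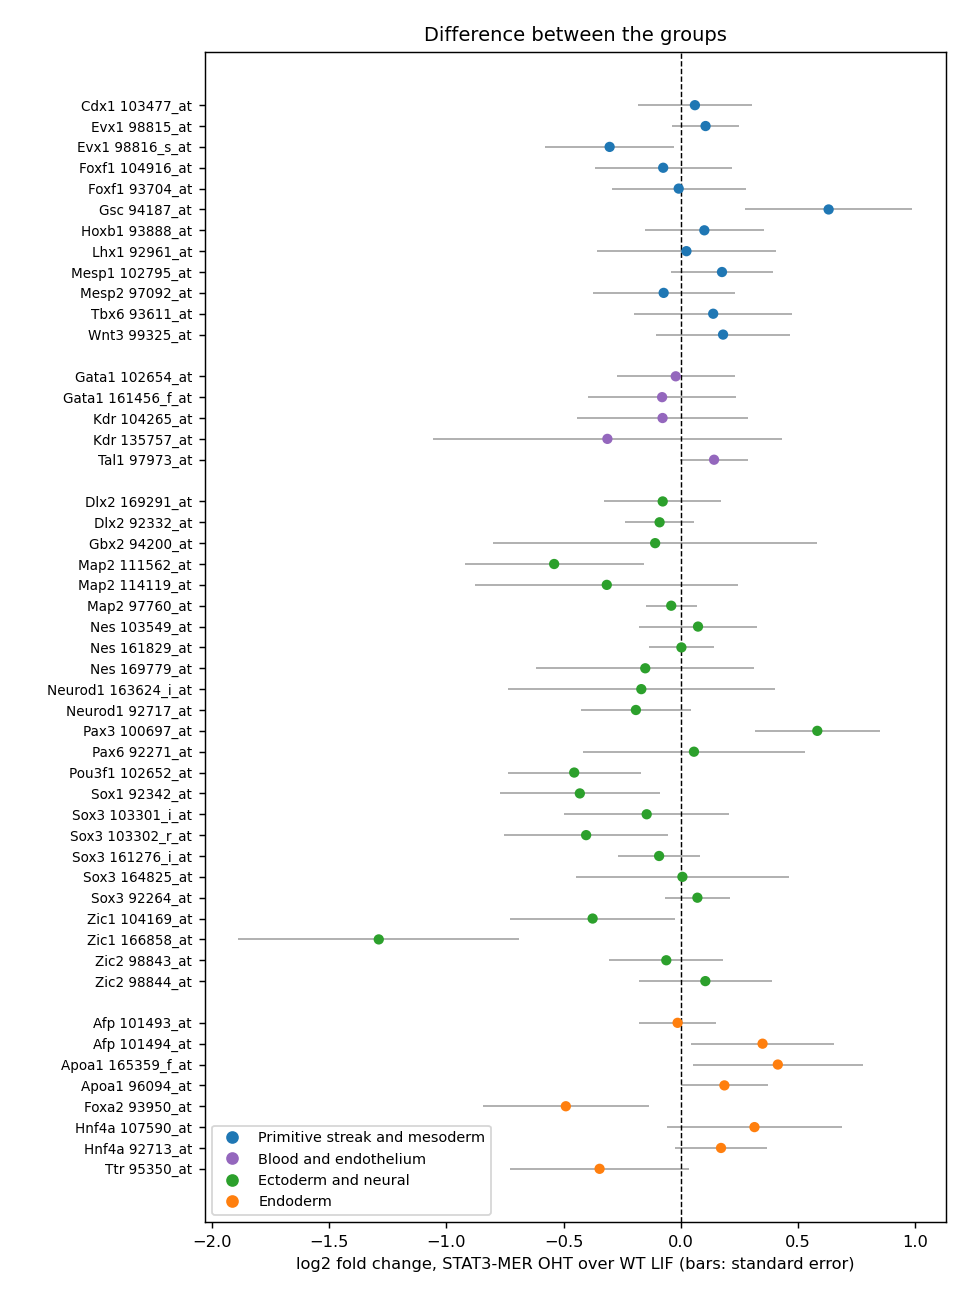
Log2 fold change, STAT3-MER OHT over WT LIF, of each of the 49 member probe sets (points, coloured by class) with its standard error from limma (bars), n = 3 dishes each. The points lie between -1.29 (Zic1 166858_at) and 0.63 (Gsc) around the dashed line at 0, and none passed the threshold.

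The list of other germ layer genes was compared in the same fit. Of its 99 probe sets, 0 passed the threshold in limma, 3 were higher and 1 was lower at an unadjusted p under 0.05, and the groups did not overlap for 3, all higher in STAT3-MER OHT. The highest of the 6 dishes was 2.83 times the lowest for the median member probe set and 2.89 times for the median of all probe sets. Over probe sets that were never above the median, in 1 to 5 dishes or in all 6 dishes, the groups did not overlap for 9.25%, 8.39% and 6.84%.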

How the data were processed

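Signal intensities of 18 arrays were used as the authors deposited them, scaled to a trimmed mean of 500.1 to 500.3. The submitters' processing notes name MAS5. The values that the authors computed with dChip were not used here. After scaling to the trimmed mean of each chip (2% left out per side), log2(signal + 32) was compared by limma 3.58.1 (R 4.3.3; a two-sided lmFit for each chip, eBayes with a mean-variance trend). P-values of all 36701 probe sets other than controls were adjusted together by the Benjamini-Hochberg method, at 0.05. The number of arrays limits the precision.

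Groups came from the labels. A U74Av2 array of STAT3-MER cells without a number was taken as number 2, and an array labelled with 2 chips as U74Cv2, whose probe sets it holds. The chip annotation, updated through RefSeq (GRCm38.p6; 29044 probe sets matched), pairs 29131 probe sets with 1 gene, 724 with several and 6846 with none. The members and lists were chosen with earlier results of these data known. Fold changes are given for member probe sets above the chip median in all 6 dishes, those with separate groups and p under 0.1, and the 2 smallest p of each class. Same-numbered dishes did not deviate together on every chip, and numbers were not used as pairs. The fit was tested on simulated data. Alternatives were other scalings, pseudocounts, a filter, no trend, adjustment within chips, a replicate block, other limits, the methods' t-test and dishes left out. Leaving out STAT3-MER OHT replicate 1 and WT LIF replicate 2 together, on all 3 chips, was added after seeing the data. On U74Av2 these had the least feeder signal of their groups. On U74Cv2 neither had, and on U74Bv2 WT LIF replicate 2 had not. Figures used matplotlib 3.10.9.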

Additional observations from a re-analysis of the deposited data

How the results depend on the processing

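No alternative that was run called a member probe set, from quantile or median scaling to each dish left out, although a filter on dim probe sets left 8 of the 49 to test. Over all probe sets 1 was called, and 1 to 2 with a dish left out (2 without WT LIF replicate 3). The methods' t-test was run here on the deposited signals, not on the dChip values to which the authors applied it. It called 2006 (5.47%) at p under 0.1, 725 (1.98%) with its ratio and difference limits added, and 0 after Benjamini-Hochberg adjustment. These counts are therefore not those of the authors' own analysis. The replicate block gave 1 call over all probe sets and 0 among the members, with adjusted p = 0.9995 for the named probe sets in limma. It joins dishes of equal number, whose deviations from their group means correlated at -0.30, -0.33 and 0.29 for numbers 1, 2 and 3 on U74Av2, 0.18, 0.21 and 0.13 on U74Bv2, and 0.11, 0.13 and 0.070 on U74Cv2. Each dish correlated best with its own number on U74Bv2 and U74Cv2 but not on U74Av2, which holds 38 of the 49 members, so that nothing was read from the block there.

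The count of members above the median in all 6 dishes (2) was 0 against the upper quartile, 4 in at least 5 of 6 dishes, and 2 to 4 with a dish left out, 4 without WT LIF replicate 1. The count of members with separate groups (0) was 2 with median scaling (Gsc and Tal1, higher), beside 8.13% of all probe sets. With a dish left out it was 0 to 10, 10 without STAT3-MER OHT replicate 3, 0 without WT LIF replicate 3 and 4 or 5 without one of the others, beside 16.3% to 18.3% of all probe sets. Without STAT3-MER OHT replicate 1 and WT LIF replicate 2 together, it was 10, beside 31.5%. This alternative was chosen after seeing the data, from the feeder signal on U74Av2, and these arrays were not those of least feeder signal on every chip.

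The median log2 fold change of the members (-0.041) was -0.079 to 0.049 with a dish left out, and 0.049 without WT LIF replicate 2. Without STAT3-MER OHT replicate 1 and WT LIF replicate 2 together it was 0.064. The 10 probe sets named with a fold change kept their sign in the 50 fits with another scaling or pseudocount (the values as deposited, among them, hardly move a fold change, and the 30 fits without a trend, adjusted within chips or with the block cannot) and in 56 of 60 fits with a dish left out, among them Evx1 98816_s_at at -0.00070 without WT LIF replicate 3. The sign turned for Kdr 135757_at (0.38 without STAT3-MER OHT replicate 1 and 0.23 without WT LIF replicate 1) and for Nes 103549_at (-0.092 without STAT3-MER OHT replicate 3 and -0.092 without WT LIF replicate 1). With a dish left out, Kdr ranged from -0.92 to 0.38 and Nes from -0.092 to 0.25. The sign of 26 of the 49 member probe sets changed with the dish left out. The cause of these changes was not tested. The arrays carry no detection calls, so that signals far below the chip median cannot be told from background, and 3 dishes of 1 line per group set the precision.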
